A study of Rattus norvegicus with 2 samples.

Results

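The genes described here sit on opposite sides of cellular sterol balance: 5 genes of sterol and acetoacetyl-CoA synthesis (Fdps, Cyp51, Sc4mol, Sc5dl and Aacs) and 2 sterol efflux transporters (Abca1 and Abcg1). They were chosen by symbol from a deposited table of 2325 rows, with their values in the same comparison already known. Every count, level and ratio given for them is therefore a description, with no test. The table itself held only genes that differed at least 2-fold between the libraries in the authors' test, so a gene outside it was not analysed here.

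RNA sequencing was done on bone marrow mesenchymal stem cells (bmMSCs) of Sprague-Dawley rats at passages 3 to 5. These are the plastic-adherent stromal cells of the marrow. One library came from cells taken 10 days after they were transfected with both Pdx1 and Ngn3, transcription factors of pancreatic and endocrine development, and the other from untransfected cells named as the negative control. There was 1 library per condition, so no difference below has a replicate check. Because the control was untransfected, the introduced genes and the transfection procedure cannot be told apart. The labels give no day of collection for the untransfected cells, so time in culture cannot be told apart from these either. The sources used here do not give the number of animals behind each library.

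Cells make cholesterol from acetyl-CoA through the mevalonate pathway, which runs over farnesyl diphosphate, squalene and lanosterol. Its enzymes are induced together by SREBP transcription factors when membrane sterol is low. Sterol leaves cells through ABC transporters, which pass it to apolipoproteins and high-density lipoprotein particles. The genes of these transporters are induced by LXR, nuclear receptors that bind oxysterols, and macrophages are the best known site of this control.

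The implied depth was 7415094 reads in the Pdx1 + Ngn3 library and 7800831 reads in the untransfected library, and the listed genes held 20.2% of the reads in the Pdx1 + Ngn3 library and 21.7% in the untransfected library. Pdx1 had 565 reads in the Pdx1 + Ngn3 library and 0 in the untransfected library. It was 198-fold higher against the floor of 3 reads that a count of 0 allows. The lower bound of its exact counting interval was 161-fold higher. Neurog3, the gene of Ngn3, was not analysed here. Among 12 stromal markers 5 were listed, 3 higher and 2 lower, where 63.5% of all rows were higher. The 2 lower markers were Thy1 (3.41-fold) and Itgb1 (2.04-fold), and the 3 higher ones included Pdgfra (2.58-fold) and Cxcl12 (2.82-fold). All 5 summed to 982 RPKM in the Pdx1 + Ngn3 library and 2207 RPKM in the untransfected library. Most of each sum was Thy1 and Itgb1, so the sum does not describe the 3 higher markers. RPKM is a read count corrected for gene length and for the total reads of the library. In bulk RNA, fewer cells of a type and less RNA per cell cannot be told apart.

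The upstream sequences of the member genes are shown because SREBP and LXR act through short sites near gene starts. Of the 7 members, 6 matched a RefSeq promoter of the rat assembly GRCr8, and Abcg1 did not. The 250 bases before the annotated start were searched on both strands for 6 motifs, and 3 sequences with a match to the sterol element or to the LXR repeat are printed 5′ to 3′ on the strand of the gene. Capitals mark every motif match.
Fdps (GRCr8 chr2:176804817-176805066, minus strand): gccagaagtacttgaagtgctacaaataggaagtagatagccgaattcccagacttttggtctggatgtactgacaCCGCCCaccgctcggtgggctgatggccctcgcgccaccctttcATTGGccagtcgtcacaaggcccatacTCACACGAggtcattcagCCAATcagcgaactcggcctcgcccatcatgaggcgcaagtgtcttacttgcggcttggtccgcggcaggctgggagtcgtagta
Sc4mol, RefSeq symbol Msmo1 (GRCr8 chr16:29746863-29747112, plus strand): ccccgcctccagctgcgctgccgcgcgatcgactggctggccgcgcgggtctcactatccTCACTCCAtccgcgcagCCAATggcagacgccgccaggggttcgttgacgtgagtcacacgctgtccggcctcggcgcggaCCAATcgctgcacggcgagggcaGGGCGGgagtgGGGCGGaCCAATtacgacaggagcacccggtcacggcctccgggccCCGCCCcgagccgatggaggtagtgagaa
Abca1 (GRCr8 chr5:72596474-72596723, minus strand): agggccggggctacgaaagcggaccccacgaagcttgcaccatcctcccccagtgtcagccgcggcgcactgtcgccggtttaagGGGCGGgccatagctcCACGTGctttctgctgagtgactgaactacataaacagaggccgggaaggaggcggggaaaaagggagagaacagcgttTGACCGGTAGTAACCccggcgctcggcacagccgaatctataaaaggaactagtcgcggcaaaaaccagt

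A short form of the sterol regulatory element, TCACNCNA, lay 103 to 96 bases before the start of Fdps and 190 to 183 bases before the start of Sc4mol. It was present in 8.38% of all 33469 promoters of the same length and in 2 of the 6 members. The longer form TCACNCCAC, which contains the short one, was in 0 of the 6 and in 0.974% of all promoters. In Fdps the short form stood between a pair of matches to CCAAT, the NF-Y box, and Sc4mol held 3 such boxes and Sc5dl 1. That box was in 34% of all promoters and in 3 of the 6 members. A loose DR4 repeat, the arrangement that LXR binds with its partner RXR, was searched as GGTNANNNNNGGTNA. It was in Abca1 alone among the 6, 70 to 56 bases before the start, and in 0.592% of all promoters. Abca1 and Sc5dl each held the E-box CACGTG (5.59% of all promoters). The Sp1 box GGGCGG was in 5 of the 6, with 30.5% of all promoters holding it, and the Aacs sequence held none of the 6 motifs. These matches describe letters and not bound sites. No match overlapped another in the 6 sequences.

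**Figure D1:**
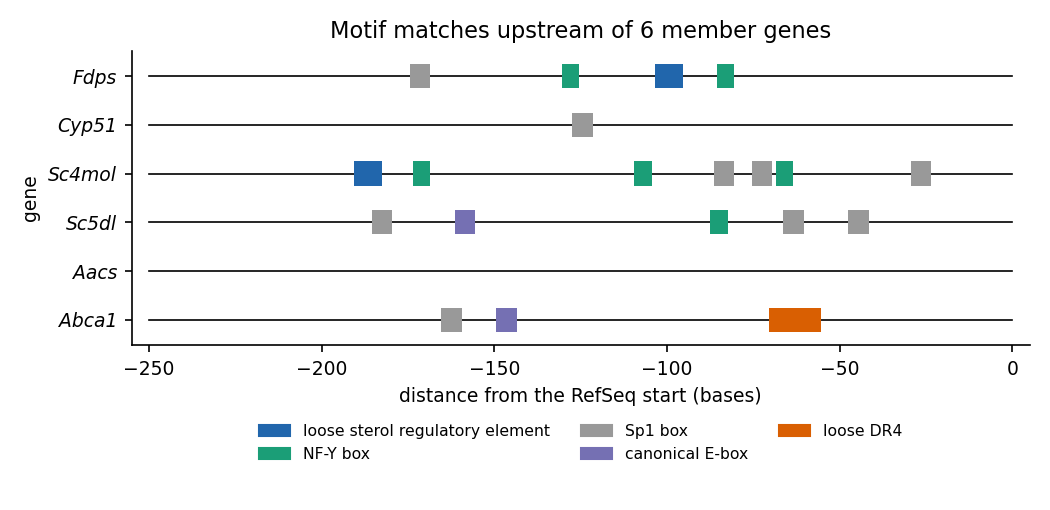
Motif matches on both strands in the 250 bases before the RefSeq start of 6 member genes, with distance from the start in bases on the x axis and 1 gene per line. Blue boxes (short sterol element) lie in Fdps and Sc4mol, and the orange box (loose DR4) lies in Abca1.

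The 5 synthesis genes were lower and the 2 efflux transporters higher in the Pdx1 + Ngn3 library. Of all rows in the table, 36.5% of rows were lower and 63.5% higher by the same measure, a ratio of at least 2 with a counting interval that excludes 1, and no row fell between these limits. The rule for the members used this contrast, so nothing is read from their count. The median log2 ratio was -1.37 for the synthesis genes and 3.28 for the transporters, against 1.24 over all 2325 rows. Summed over genes, synthesis reads were 2079 in the Pdx1 + Ngn3 library and 6446 in the untransfected library, and efflux reads were 742 in the Pdx1 + Ngn3 library and 102 in the untransfected library. Most of these efflux reads were of Abca1, 629 in the Pdx1 + Ngn3 library and 93 in the untransfected library. Efflux reads stood at 35.7 per 100 synthesis reads in the Pdx1 + Ngn3 library and 1.58 per 100 in the untransfected library. The difference was 22.6-fold (exact 95% interval 18.2 to 28.2). In summed RPKM the same proportion was 13.7 per 100 in the Pdx1 + Ngn3 library, against 0.583 per 100 in the untransfected library. This proportion is free of the library total, since both groups of genes were read in the same library. Intervals here and below are exact 95% intervals that cover counting error only, and reads amplified by PCR without molecular identifiers are not independent molecules.

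Fdps makes farnesyl diphosphate, the branch point between sterols and other isoprenoids. It had 372 reads, or 19.0 RPKM, in the Pdx1 + Ngn3 library (interval 17.1 to 21.0) and 1011 reads, or 49.0 RPKM, in the untransfected library (46.0 to 52.1). The intervals did not overlap, and the fold was 2.58 lower (2.29 to 2.92). The Fdps row rests on a cDNA deposited under another name, 2646 bases long, of which its description marks 2640 (99.8%) as coding. The RPKM of Fdps depends on that length and the ratio does not. Whether all reads of this row come from Fdps transcripts was not tested. A predicted locus similar to a testis-specific farnesyl pyrophosphate synthetase, RGD1565157, was also lower, with 16 reads in the Pdx1 + Ngn3 library and 63 in the untransfected library. The sources used here do not give how reads shared by such copies were counted, so both counts are uncertain.

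Cyp51 is the cytochrome P450 that demethylates lanosterol, the first sterol of the pathway. It had 595 reads, or 26.3 RPKM, in the Pdx1 + Ngn3 library (24.3 to 28.5) and 2042 reads, or 85.9 RPKM, in the untransfected library (82.3 to 89.7). It was 3.26-fold lower (2.98 to 3.58), and these were the most untransfected reads of any member.

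Sc4mol, now Msmo1, is the oxidase that removes methyl groups from the sterol ring after Cyp51. It had 688 reads, or 53.7 RPKM, in the Pdx1 + Ngn3 library (49.8 to 57.9) and 1834 reads, or 136 RPKM, in the untransfected library (129.9 to 142). It had the highest RPKM of the 7 members in both libraries and was 2.53-fold lower (2.32 to 2.77).

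Sc5dl, now Sc5d, is the desaturase that turns lathosterol into the precursor of cholesterol and vitamin D. It had 305 reads, or 18.8 RPKM, in the Pdx1 + Ngn3 library (16.8 to 21.1) and 1270 reads, or 74.5 RPKM, in the untransfected library (70.5 to 78.7). Among the 5 synthesis genes it had the largest fold, 3.96 lower (3.49 to 4.50), and ranked 290 of the 849 lower rows by fold.

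Aacs, acetoacetyl-CoA synthetase, activates the ketone body acetoacetate in the cytosol for the synthesis of sterols and fatty acids. It had 119 reads, or 4.89 RPKM, in the Pdx1 + Ngn3 library (4.05 to 5.85) and 289 reads, or 11.3 RPKM, in the untransfected library (10.03 to 12.7). It was 2.31-fold lower (1.86 to 2.88), the lowest level and the smallest fold of the synthesis genes, and it ranked 658 of 849 lower rows. With the interval bound nearest to no change held to 2-fold, Aacs was the 1 member of 7 that missed the limit, where 23.7% of all rows were lower and 41.7% higher.

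Among the synthesis genes the folds ran between 2.31 lower in Aacs and 3.96 lower in Sc5dl. As a description of these 2 libraries, 7 of 10 pairs had a ratio of folds whose counting interval excluded 1, which says nothing of the spread between cultures. Relative to Aacs, the Sc5dl ratio was 0.583 (0.453 to 0.754), and relative to Sc4mol, the Cyp51 ratio was 0.777 (0.683 to 0.883). Fdps, Sc4mol and Aacs could not be separated at this depth, with Fdps to Sc4mol at 0.981 (0.843 to 1.14). By RPKM the order in the Pdx1 + Ngn3 library was Sc4mol, Cyp51, Fdps, Sc5dl and Aacs, with overlapping intervals for Fdps and Sc5dl. In the untransfected library the order was Sc4mol, Cyp51, Sc5dl, Fdps and Aacs, and no neighbouring intervals overlapped.

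Abca1 moves cholesterol and phospholipid from the plasma membrane to lipid-poor apolipoprotein A-I. It had 629 reads, or 12.5 RPKM, in the Pdx1 + Ngn3 library (11.5 to 13.5) and 93 reads, or 1.75 RPKM, in the untransfected library (1.41 to 2.15). The intervals were far apart and Abca1 was 7.12-fold higher (5.72 to 8.94), rank 328 of the 1476 higher rows. Its cDNA in the deposited table is a partial coding sequence of 6801 bases, 97.1% of them coding.

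Abcg1 is a half-transporter that passes sterol on to high-density lipoprotein particles. It had 113 reads, or 4.32 RPKM, in the Pdx1 + Ngn3 library (3.56 to 5.19) and 9 reads, or 0.327 RPKM, in the untransfected library (0.150 to 0.621). Abcg1 was 13.2-fold higher, rank 154 of 1476, with a wide interval of 6.72 to 29.6 set by the 9 untransfected reads. The folds of both transporters could not be separated at this depth, with Abca1 to Abcg1 at 0.539 (0.232 to 1.11).

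**Figure D2:**
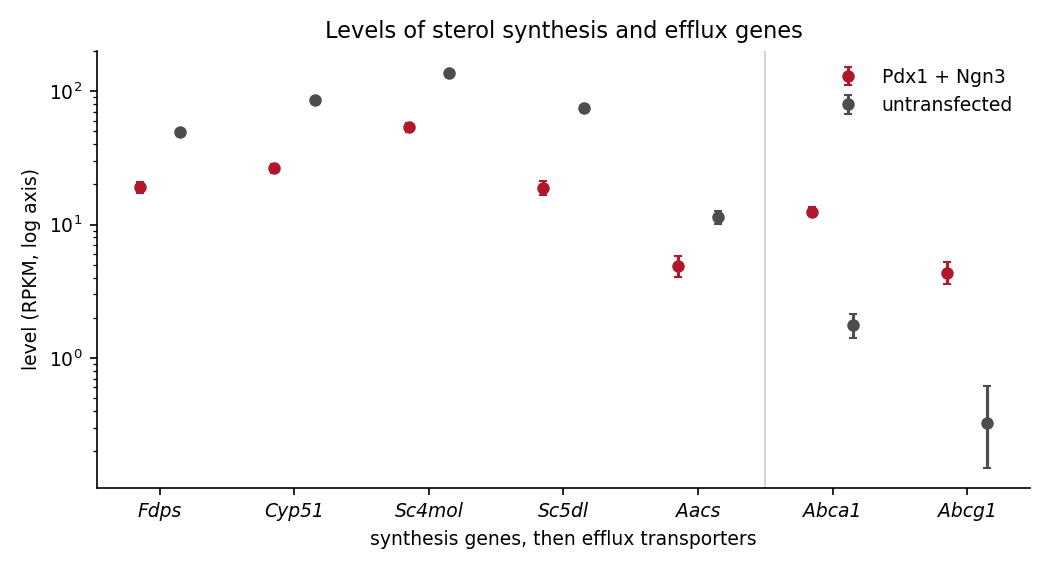
Level in RPKM (log axis) of the 7 genes in the Pdx1 + Ngn3 library (red, left of each pair) and the untransfected library (grey), 1 library each, with exact 95% counting intervals as bars. All 5 synthesis genes are lower in the Pdx1 + Ngn3 library and both transporters are higher, Abcg1 at 4.32 against 0.327 RPKM.

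In the untransfected library Aacs, the lowest synthesis gene, stood at 11.3 RPKM, above both transporters. In the Pdx1 + Ngn3 library Abca1 at 12.5 RPKM stood above Aacs at 4.89 RPKM, and the interval of Abcg1 overlapped that of Aacs. The other synthesis genes stayed above both transporters in both libraries. Among rows with a rat symbol, the one nearest to Cyp51 was Ptpla (26.2 RPKM in the Pdx1 + Ngn3 library, 84.1 RPKM in the untransfected library) and the one nearest to Abca1 was Ppfia4 (10.7 RPKM in the Pdx1 + Ngn3 library, 1.71 RPKM in the untransfected library). Likeness was the larger of the differences in log2 RPKM over the 2 libraries, 0.031 for Cyp51 and 0.22 for Abca1.

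**Figure D3:**
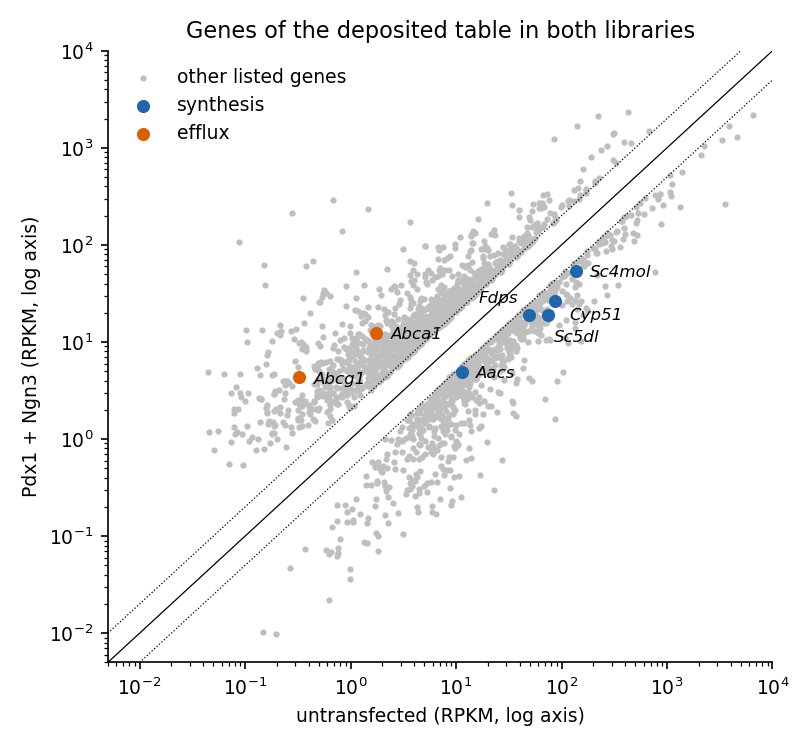
Level of each listed gene with reads in both libraries, Pdx1 + Ngn3 on the y axis against untransfected on the x axis (RPKM, log axes), with the line of no change and dotted lines at 2-fold. The empty band between the dotted lines is the authors' selection, with the 5 synthesis genes (blue) under it and the 2 transporters (orange) above it.

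The rest of the synthesis pathway was described from a list of 20 enzymes on the way from acetyl-CoA to cholesterol, of which 13 were listed. All 13 were lower, where 36.5% of all rows were lower, and their median log2 ratio was -1.46 against 1.24 over all rows. Leaving out the 4 members that the list contains, 9 of 9 were lower. As the list was chosen with earlier results known and the table holds selected rows of the same contrast, this count carries no test. The 7 enzymes outside the table were not analysed here.

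Before squalene, 5 enzymes were lower by 2.58-fold to 4.98-fold. The largest fold was in Idi1, the isopentenyl diphosphate isomerase, with 41 reads in the Pdx1 + Ngn3 library and 215 in the untransfected library (4.98-fold lower, 3.56 to 7.14). Hmgcs1, the synthase that commits acetoacetyl-CoA to the pathway, was 3.15-fold lower (2.78 to 3.58), at 13.5 RPKM in the Pdx1 + Ngn3 library and 42.5 RPKM in the untransfected library. Fdft1, squalene synthase, which draws on the product of Fdps, was 2.75-fold lower (2.38 to 3.19). The remaining row carries the deposited symbol Acat3 and an identifier that RefSeq now names Acat2, the cytosolic thiolase of the first step. It was 2.97-fold lower, from 31 reads in the Pdx1 + Ngn3 library and 97 in the untransfected library, and close thiolase copies make its count uncertain.

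After squalene, 8 enzymes were lower by 2.04-fold to 3.96-fold, the last in Sc5dl. Tm7sf2, a sterol reductase that follows Cyp51, was 3.64-fold lower (2.14 to 6.51), with 18 reads in the Pdx1 + Ngn3 library and 69 in the untransfected library, and Sqle, squalene epoxidase, was 2.44-fold lower. The values closest to the 2-fold limit of the table were those of Lss, lanosterol synthase (2.04-fold, 1.74 to 2.40), Dhcr7, the last reductase on the path through Sc5dl (2.04-fold, 1.52 to 2.77), and Ebp, a sterol isomerase (2.16-fold, 1.48 to 3.19).

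Of a list of 19 sterol sensing and uptake genes 3 were in the table, all lower, where 36.5% of all rows were lower. Like the lists that follow, this list was chosen with earlier results of these data known, and its count carries no test. Insig1, the membrane protein that holds SREBP back when sterol is plentiful and is itself an SREBP target, was 2.21-fold lower (8.51 RPKM in the Pdx1 + Ngn3 library, 18.9 RPKM in the untransfected library). Stard4, a cytosolic sterol carrier, was 4.59-fold lower (40 reads in Pdx1 + Ngn3, 193 in untransfected cells). Lrp8, a receptor of the low-density lipoprotein receptor family, was 7.94-fold lower (28 reads in Pdx1 + Ngn3, 234 in untransfected cells).

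Of 11 genes in branches that use isoprenoids outside sterols 2 were listed and both were higher, where 63.5% of all rows were higher. Fntb, the beta subunit of protein farnesyltransferase, was 3.03-fold higher (11.1 RPKM in the Pdx1 + Ngn3 library, 3.68 RPKM in the untransfected library). Coq2, the prenyltransferase of ubiquinone synthesis, was 2.89-fold higher (9.68 RPKM in Pdx1 + Ngn3, 3.35 RPKM in untransfected cells). Both stayed above 0 under median-of-ratios scaling, Fntb at a log2 ratio of 0.40 and Coq2 at 0.33, but below 2-fold. Of 8 genes of ketone body use, Aacs was the one listed.

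Of 17 efflux genes and LXR targets 5 were listed, 3 higher and 2 lower, where 63.5% of all rows were higher and 36.5% lower. Besides the transporters, Apoe, the apolipoprotein E that accepts effluxed sterol, was 5.00-fold higher (2.30 to 12.4), with 38 reads in the Pdx1 + Ngn3 library and 8 in the untransfected library. Arl4c, a small GTPase, was 5.78-fold lower (4.05 to 8.47), with 36 reads in Pdx1 + Ngn3 and 219 in untransfected cells. Pltp, the phospholipid transfer protein of plasma lipoproteins, was 4.23-fold lower (2.17 to 9.03), with 11 reads in Pdx1 + Ngn3 and 49 in untransfected cells. Genes of this list other than the 2 members were thus 1 higher and 2 lower, with a median log2 ratio of -2.08.

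**Figure D4:**
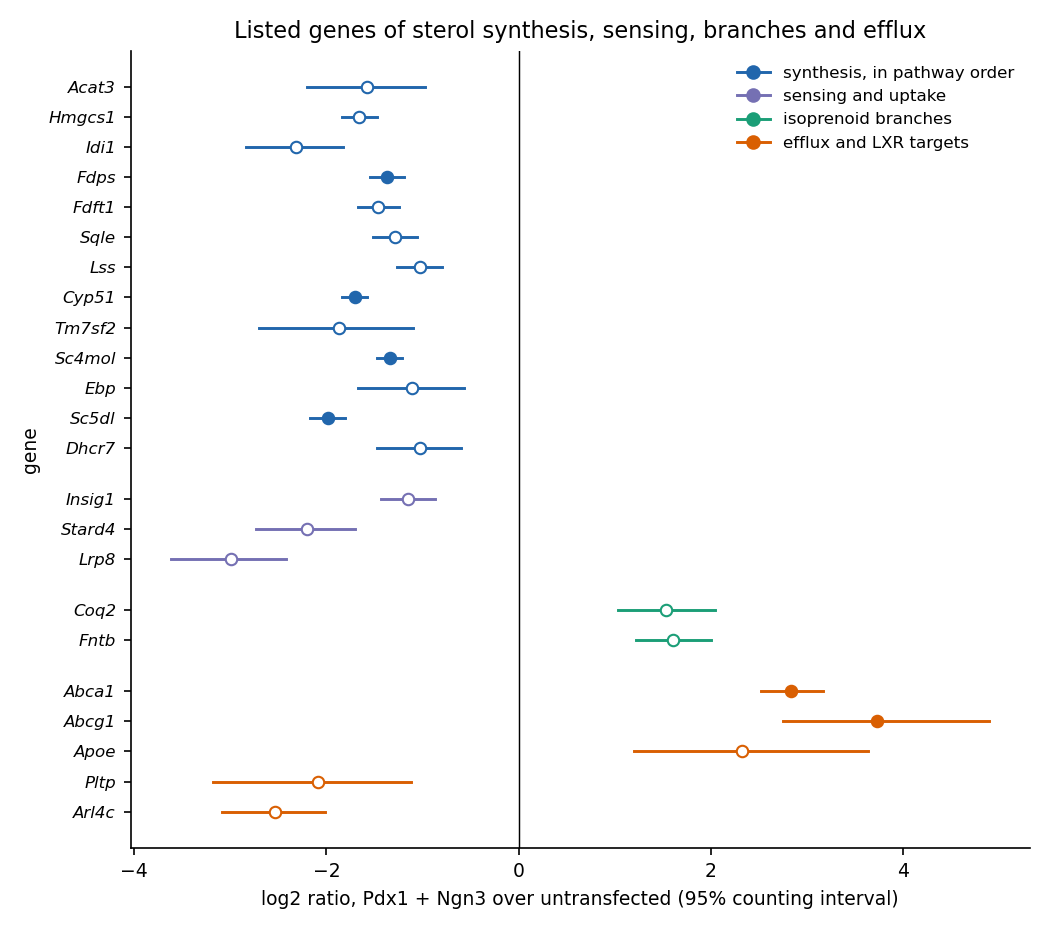
Log2 ratio of the Pdx1 + Ngn3 over the untransfected library with exact 95% counting intervals for the listed genes of 4 gene lists. Synthesis enzymes run from top to bottom in pathway order. Filled points are member genes. All 13 synthesis enzymes and 3 sensing and uptake genes lie left of 0, and the efflux and LXR list lies on both sides.

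Abca1 and Abcg1 belong to the ABC transporter family, which has 54 protein-coding genes named Abc in the RefSeq table. Of these 5 were listed, Abca1 and Abcg1 among them, and all 5 were higher, where 63.5% of rows were higher. Abca1 and Abcg1 were chosen with their values known, and the other rows were named after theirs were seen, so this count carries no test. Abcc1 turned to a log2 ratio of -0.080 under median-of-ratios scaling. Abca4, best known as the retinoid transporter of photoreceptors, was 14.0-fold higher (120 reads in the Pdx1 + Ngn3 library, 9 in the untransfected library). Abca9 was 3.11-fold higher (183 reads in Pdx1 + Ngn3, 62 in untransfected cells) and Abcc1, the multidrug resistance protein, 2.18-fold higher (1473 reads in Pdx1 + Ngn3, 712 in untransfected cells).

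A few chosen terms of the deposited gene annotation were counted over all rows. Cyp51 and Sc5dl were the only rows with the term cholesterol biosynthetic process, and both were lower. Abca1 and Abcg1 shared 4 of the terms counted. Among the other rows with each term, 2 were higher and 0 lower for regulation of cholesterol efflux, and 3 and 2 for sterol homeostasis. The counts were 1 and 1 for cholesterol storage and 4 and 2 for macrophage-derived foam cell differentiation, beside 63.5% higher over all rows. Cholesterol metabolic process was attached to 15 rows, Fdps among them, of which 12 were lower and 3 higher, or 13 and 2 under median-of-ratios scaling, where Acaa2 turned.

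Macrophages express Abca1 and Abcg1, and of 14 macrophage markers 2 were listed. Cd68, a lysosomal protein of macrophages, had 26 reads in the Pdx1 + Ngn3 library and 5 in the untransfected library. Cd74, the chaperone of class II histocompatibility molecules, had 5 reads in Pdx1 + Ngn3 and 96 in untransfected cells. Cd68 was thus 5.47-fold higher and Cd74 18.3-fold lower. Together they summed to 3.34 RPKM in the Pdx1 + Ngn3 library and 9.22 RPKM in the untransfected library. Most of the untransfected sum was Cd74 (8.70 RPKM), so the sum does not describe Cd68. Neither marker was at 0, and the other 12 were not analysed here. Of 10 adipocyte markers Lpl, lipoprotein lipase, was listed, at 43.1 RPKM in the Pdx1 + Ngn3 library and 5.88 RPKM in the untransfected library. Of 4 hepatocyte markers Ttr was listed (27.7 RPKM in Pdx1 + Ngn3, 7.69 RPKM in untransfected cells), and of 6 endothelial markers Egfl7 (1.57 RPKM in Pdx1 + Ngn3, 5.30 RPKM in untransfected cells). The part of such cells in the member values was not tested.

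The library total decides every fold but not the contrast between the gene groups. Scaling factors from these selected genes shifted every log2 ratio by -0.78 with TMM and by -1.20 with median of ratios. The share of higher rows among calls was 46.4% with TMM and 37.6% with median of ratios, against 63.5% with implied totals. Both methods assume that most genes are unchanged, which rows selected for a 2-fold difference do not meet. Median of ratios moved the median log2 ratio of all rows from 1.24 to 0.038. A sign kept or turned under these scalings is therefore a description only. All 5 synthesis genes stayed lower and both transporters higher under each of the 4 scalings, although the downward shifts could have turned only the transporters. Under median of ratios Abca1 had a log2 ratio of 1.63 and Abcg1 2.52, and Aacs had -2.41. A change of the relative library total by 2.31-fold would bring Aacs, the nearest synthesis gene, to no change, and one of 7.12-fold in the other direction would do so for Abca1.

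**Figure D5:**
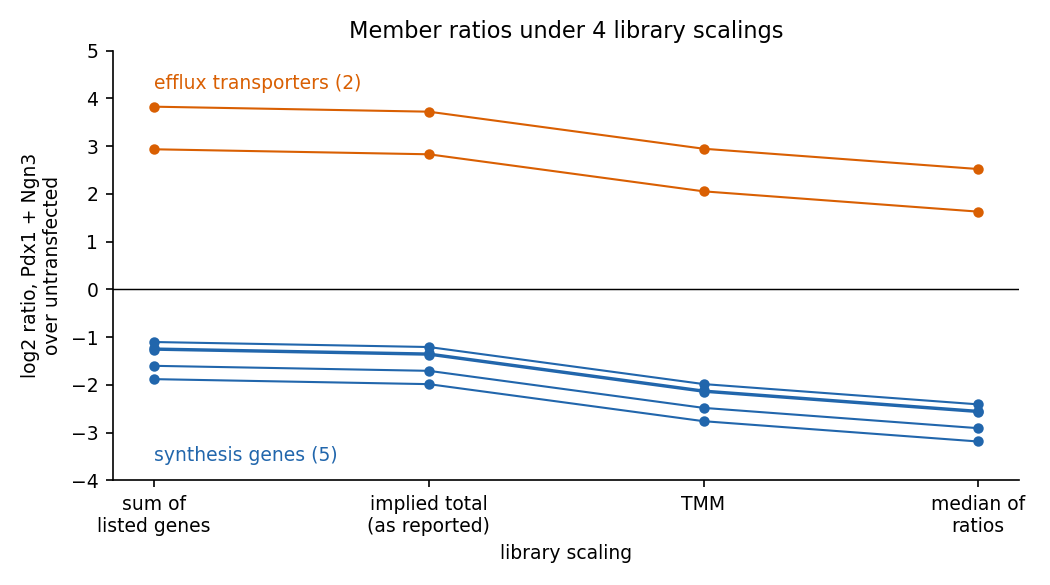
Log2 ratio of the Pdx1 + Ngn3 over the untransfected library for each of the 7 genes (y axis) under 4 library scalings (x axis), with lines joining the values of 1 gene. The 2 efflux transporters (orange) stay above 0 and the 5 synthesis genes (blue) below it, and all lines shift in parallel.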

How the data were processed

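Polyadenylated RNA of 2 samples was sequenced on an Illumina GA instrument, per the labels' protocols, which name no strand-marking step. The submitters' processing notes name the build rn4. The sources used here name no aligner or counting tool. The deposited table holds whole-number read counts per gene, without scaling. Per the file headers it also holds RPKM, which the authors derived from those counts, with 0.001 written for 0 reads, and the log2 ratio of the RPKM values. The deposited p-value and false discovery rate compare 2 libraries and were used only to describe the selection, which ended at a rate of 0.000996 in the authors' deposited table.

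Library totals were recovered from counts, gene length and RPKM. One total per library held in all rows but 1. Ratios of counts over these totals received exact Clopper-Pearson intervals and levels exact Poisson intervals (SciPy 1.17.1), which cover counting error only. The calculation was tested on simulated data. No p-value was computed, with 1 library per condition. TMM came from edgeR 4.0.16 and median-of-ratios factors from DESeq2 1.42.0. Other alternatives were the summed listed genes, log2(RPKM + 1), means, summed RPKM, the authors' deposited log2 ratio, a stricter call and a minimum of 30 reads. Of 2325 rows, 1630 matched a RefSeq gene of GRCr8, and genes were matched to lists by deposited or RefSeq symbol.

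A further gene of the synthesis pathway, outside its list of 20, is not reported here. Members and the 12 lists were chosen with earlier results of these data known. The naming rule took the members, all listed genes of the synthesis and efflux lists, up to 4 genes of other lists with the highest RPKM, and the row nearest each member. RGD1565157 and the other ABC transporters were named after their values were seen.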

Additional observations from a re-analysis of the deposited data

How the results depend on the processing

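Of 66 recomputed values for the members and gene groups, 14 were fixed by construction: the authors' deposited log2 ratios, which come from the same counts, the mean of 2 transporters, and scalings of measures free of the library total. Of the other 52, 31 stayed within the counting interval of the reported value or within 1.5 times a count. Another 21 moved beyond these limits and 0 changed direction. Many of the 52 could not have changed direction. The log2(RPKM + 1) scale keeps the sign of a ratio, and TMM and median of ratios shifted every ratio down, away from no change for the synthesis genes. TMM gave a median log2 ratio of -2.15 for the synthesis genes and 2.50 for the transporters, and median-of-ratios scaling gave -2.57 for the synthesis genes and 2.08 for the transporters. With log2(RPKM + 1) the median of the transporters was 2.15 and the efflux minus synthesis difference 3.47, against 4.65 as reported, since the pseudocount compresses the low untransfected levels of both transporters. The count of 13 lower synthesis pathway genes ranged from 9 with the stricter call to 13. The count of higher ones was 0 throughout, but no alternative could have raised it. The stricter call, the read minimum and the downward scalings add no higher gene, and log2(RPKM + 1) keeps the sign. Scaling by the summed listed genes raised log2 ratios by 0.105, where the highest of the pathway was -1.03. No value on the log2(RPKM + 1) scale was made for the summed reads. No paired analysis was possible because each condition has 1 library. Among the 7 members, depth limits Abcg1 most, with 9 untransfected reads.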

Other observations

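Fatty acid synthesis, which shares the SREBP family with the sterol pathway, had 6 of 15 list genes in the table, 4 lower and 2 higher. Over all rows, 36.5% were lower and 63.5% higher. Fads2 and Fads1, the desaturases of polyunsaturated fatty acids, were 6.49-fold and 4.02-fold lower, Fads2 at 16.9 RPKM in the Pdx1 + Ngn3 library and 109.7 RPKM in the untransfected library. Scd1, the desaturase that makes monounsaturated fatty acids, was 3.46-fold lower and Mid1ip1, a regulator of acetyl-CoA carboxylase, 2.57-fold lower. Elovl5, an elongase of polyunsaturated fatty acids, had 87 reads in the Pdx1 + Ngn3 library and 14 in the untransfected library (6.54-fold higher, interval 3.69 to 12.5). Gpam, an acyltransferase of glycerolipid synthesis, was 2.34-fold higher, but its log2 ratio was 0.026 under median-of-ratios scaling. Elovl5 and Gpam rank below the other 4 by mean RPKM and were named after their values were seen, to complete the list.

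Of 13 genes of sterol esters and oxysterols, Cyp7b1 was the one listed. It encodes an oxysterol hydroxylase, and it was 5.21-fold higher (interval 4.33 to 6.29), with 688 reads in the Pdx1 + Ngn3 library and 139 in the untransfected library.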
